A study of Homo sapiens with 6 samples.

Results

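The 46 genes described here encode proteins that detect DNA damage, signal it and repair double-strand breaks, with a few partners from single-strand break and mismatch repair. They were chosen by name as a list of pathway members, and all 46 were matched by symbol to 1 row each of a deposited table of 32692 human genes. RNA was measured in DU145, an established human prostate cancer line, in cells kept for 24 h in the solvent DMSO or in OTI-611 at 5 µM. This compound is known here by its code name only, and the series title names the chromatin remodeller CHD1L as the target. Each group held 3 libraries of this 1 line, numbered as the labels number them. Separate cultures are not stated in the labels, and the p-values below therefore measure the spread between these libraries alone, which may be technical. CHD1L itself was listed at low values, 0, 0.662 and 0.691 RPKM with DMSO and 0.585, 0.792 and 0.546 RPKM with OTI-611. The groups overlapped and lay under the minimum for testing, and whether these values give the full level of CHD1L could not be checked.

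As background, a double-strand break is recognised by protein complexes that activate the kinases ATM, ATR and DNA-PK, which pass the signal to the checkpoint kinases CHEK1 and CHEK2. Breaks are then either joined end to end, with the Ku proteins holding the ends, or copied from the sister chromatid by homologous recombination, in which BRCA1, PALB2 and BRCA2 act on resected DNA. The Fanconi pathway unhooks crosslinks between the DNA strands and hands the resulting break to recombination, and many of these genes are transcribed most strongly in dividing cells around S phase.

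Values are reads scaled to gene length and library size (RPKM), or the like unit for fragments, so levels can be compared between genes. The library DMSO 1 holds whole numbers only and is taken to be RPKM cut down to the integer. Between 1 and 50 RPKM its genes were on average 0.51 to 0.53 under DMSO 2 and DMSO 3, which lowers the DMSO mean most for low genes. The 6 columns summed to 303084 to 314127 RPKM. Spacing of the low values put the 5 libraries with decimals at an estimated 30.7 to 37.8 M reads. The carcinoma and epithelial markers KRT8, KRT18, KRT19, EPCAM and CDH1 were all listed above 1 RPKM in every library, the androgen-regulated prostate genes KLK3, KLK2 and TMPRSS2 were at most 0.0595 RPKM, and the summed level of 5 matched markers out of 8 for blood, endothelial and stromal cells lay at 0 to 1.27 RPKM with DMSO and 0.218 to 0.239 RPKM with OTI-611. PTPRC, PECAM1 and VWF, which define blood and endothelial cells, were listed at or below 0.0157 RPKM in every library. In bulk RNA, fewer cells with a gene on and less RNA per cell cannot be told apart.

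Of the 46 members, 43 had a mean of at least 1 RPKM over the 6 libraries and were tested, with 21 lower and 11 higher at an adjusted p of 0.05 in limma and 11 not passing. Over all 11978 genes tested, 65.2% were called, 27.8% as higher and 37.3% as lower, so the members' share of rises (25.6%) was close to the background and their share of falls (48.8%) was above it. The median log2 fold change was -0.15 over the members and -0.054 over all genes tested. Fold changes are differences of log2(value + 1), which understates the change of low genes. Without DMSO 1, 22 of the 43 tested members fell and 8 rose, beside 5080 falls and 3183 rises among the 12119 genes tested in that setting. The groups did not overlap in 35 of the 43 tested members (81.4%), against 70.2% of all genes tested, with DMSO 1 taken as deposited. For BRCA2 and WRN this separation rests on the dropped decimals of DMSO 1. None of the tested members rose or fell by 1 on the log2 scale, but few genes did, 1.91% and 2.1% of all genes tested. By at least 0.5, 6 members (14%) fell and 0 rose, against 14.6% and 8.57% of all genes tested. By at least 0.3, 13 members (30.2%) fell and 2 (4.65%) rose, against 27.3% and 17.7%.

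**Figure D1:**
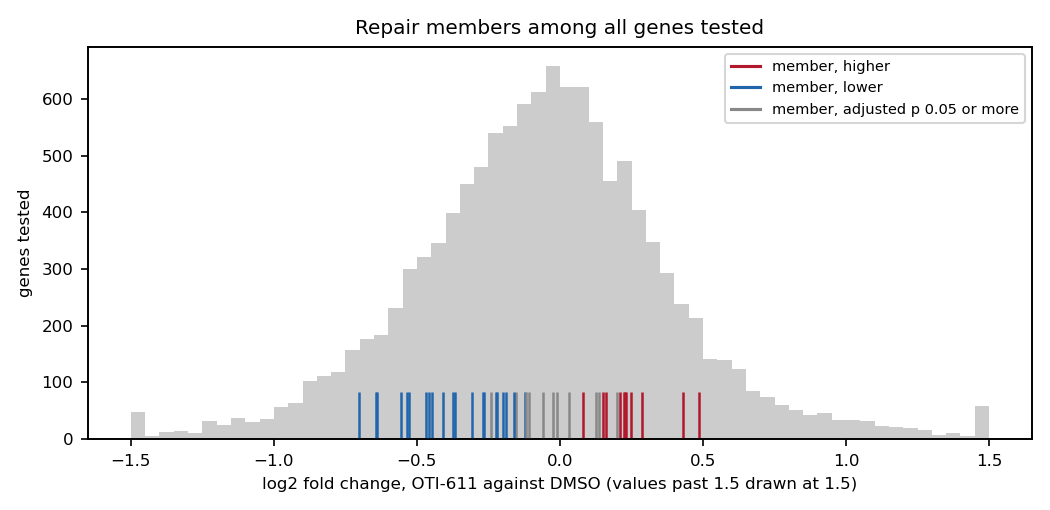
Histogram of log2 fold changes (x axis, OTI-611 against DMSO) of the 11978 genes tested (y axis, number of genes per bin), with 1 tick for each of the 43 tested members, coloured by call. The members lie between -0.70 and 0.49, inside the bulk of all genes, with more ticks on the lower side.

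With all 6 libraries, FANCL and XRCC2 had the lowest log2 fold changes of the tested members and DCLRE1C and PALB2 the highest, although XRCC2 and RAD51C were within their standard errors of each other and changed places in other settings, as did DCLRE1C and PALB2 without DMSO 1. In GENCODE release 29 on GRCh38, FANCL (ENSG00000115392) lies at chr2:58159243-58241372, XRCC2 (ENSG00000196584) at chr7:152644779-152676165, DCLRE1C (ENSG00000152457) at chr10:14897359-14954432 and PALB2 (ENSG00000083093) at chr16:23603160-23641310, all on the minus strand. Their RefSeq promoter windows (GRCh38.p14, 250 bases before to 50 after the start, 5′ to 3′ on the gene's strand) are shown as examples from both ends of the range of responses. The windows are chr2:58241276-58241575 for FANCL, chr7:152676092-152676391 for XRCC2, chr10:14954383-14954682 for DCLRE1C and chr16:23641261-23641560 for PALB2. Capitals mark letters matching the motifs searched: E2F (TTTCGCGC, TTTGGCGC, TTTCCCGC or TTTGGCGG), the CCAAT box (CCAAT), CHR (TTTGAA or TTCGAA) and CRE (TGACGTCA or TGACGTAA), each on both strands.
FANCL: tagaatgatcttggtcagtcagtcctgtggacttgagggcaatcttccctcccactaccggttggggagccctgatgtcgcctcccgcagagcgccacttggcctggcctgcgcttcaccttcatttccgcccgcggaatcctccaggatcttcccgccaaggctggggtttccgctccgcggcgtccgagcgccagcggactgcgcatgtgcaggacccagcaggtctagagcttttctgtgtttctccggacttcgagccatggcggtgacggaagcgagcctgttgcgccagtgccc
XRCC2: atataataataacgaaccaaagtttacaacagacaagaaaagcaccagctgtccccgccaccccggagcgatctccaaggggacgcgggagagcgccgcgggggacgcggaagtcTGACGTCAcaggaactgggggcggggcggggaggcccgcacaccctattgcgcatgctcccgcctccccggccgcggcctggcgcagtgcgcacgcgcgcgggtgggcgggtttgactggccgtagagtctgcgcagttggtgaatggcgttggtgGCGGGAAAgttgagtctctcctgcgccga
DCLRE1C: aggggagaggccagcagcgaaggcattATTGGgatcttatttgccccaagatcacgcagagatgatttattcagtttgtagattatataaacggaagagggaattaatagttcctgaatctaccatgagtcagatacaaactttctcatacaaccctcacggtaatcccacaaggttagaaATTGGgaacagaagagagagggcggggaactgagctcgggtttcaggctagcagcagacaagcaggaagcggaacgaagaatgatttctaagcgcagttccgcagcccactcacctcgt
PALB2: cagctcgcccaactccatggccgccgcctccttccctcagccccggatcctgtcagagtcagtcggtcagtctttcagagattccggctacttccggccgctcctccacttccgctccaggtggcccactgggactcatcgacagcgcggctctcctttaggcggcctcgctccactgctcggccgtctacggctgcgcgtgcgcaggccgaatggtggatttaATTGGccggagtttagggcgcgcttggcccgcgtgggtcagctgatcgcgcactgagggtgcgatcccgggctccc

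The XRCC2 window holds an E2F match from 22 to 29 bases after the start and a CRE match from 135 to 128 bases before it. The DCLRE1C window holds 2 CCAAT matches and the PALB2 window 1, on the reverse strand in each case, and the FANCL window holds none of the motifs. RefSeq windows were found for 40 of the 46 members. E2F letters were present in the windows of 7 of these 40 (17.5%), namely EXO1, XRCC2, FANCC, FANCD2, XRCC6 and MSH6, which fell, and RNF168, which rose. Among all 27305 genes with a window the share was 4.05%, and among the 8820 of them that were tested it was 7.19%. CRE letters were present in 6 members (15%), BRCA1, RAD51C, XRCC2, EXO1, LIG4 and PMS2, of which PMS2 rose and the others fell, against 2.74% of all genes and 4.78% of tested genes. CCAAT letters were in 22 members (55%, against 39.7% of all genes and 43.4% of tested genes) and CHR letters in 5 (12.5%, against 19.5% and 14.9%). These are matches of letters in a fixed window, with no measurement of binding.

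**Figure D2:**
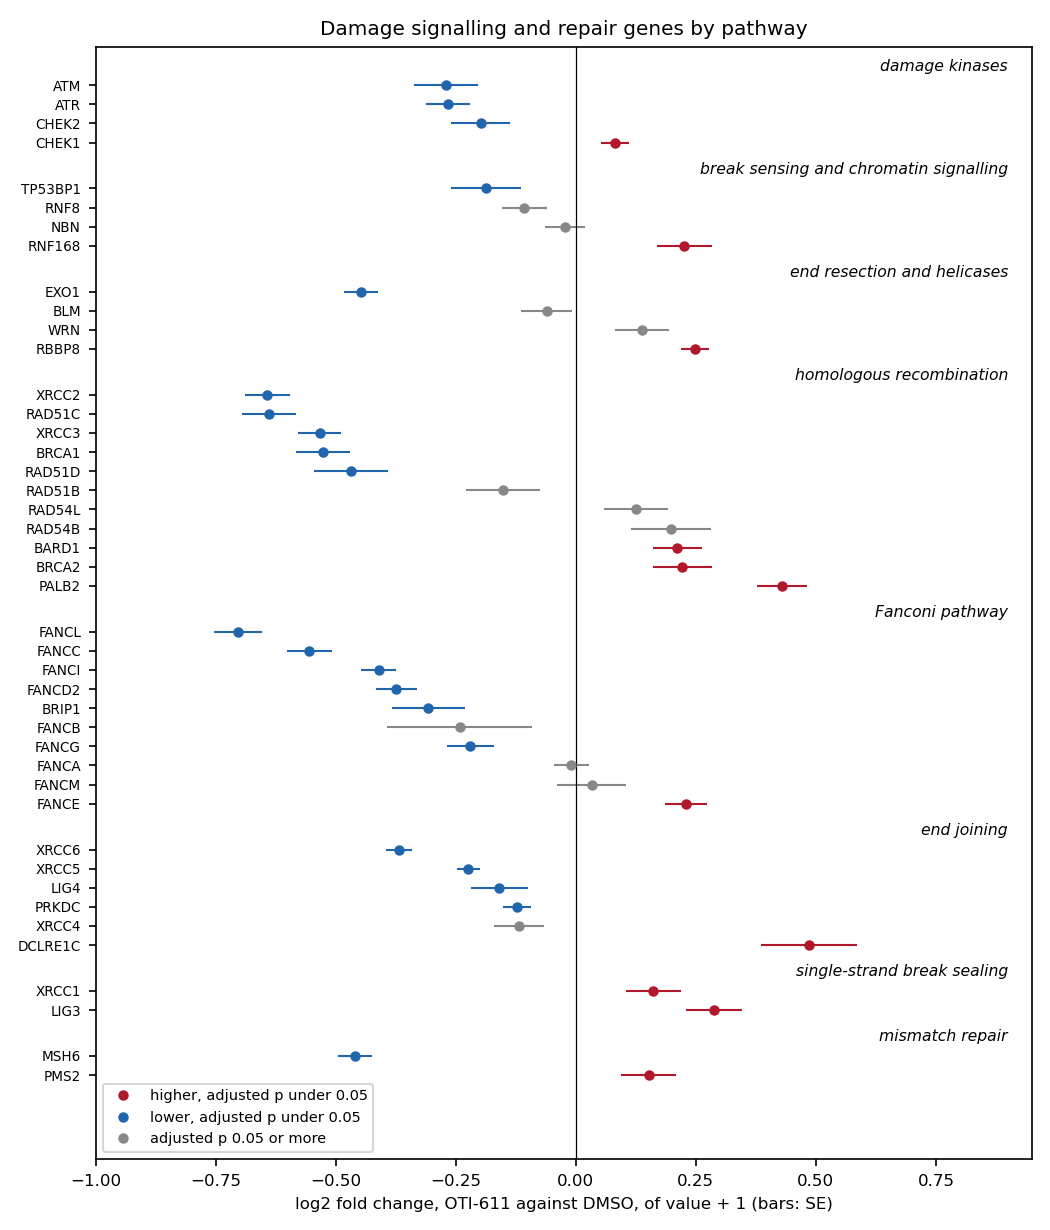
Log2 fold change of each tested member (x axis, OTI-611 against DMSO, of value + 1, with the standard error as bars), grouped by pathway and coloured by call. The called genes of homologous recombination lie at -0.64 to -0.47 or at 0.21 to 0.43, and the Fanconi and end joining genes lie mostly below 0.

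Among the damage kinases, both apical kinases ATM and ATR and the effector CHEK2 fell, and CHEK1 rose slightly. ATM, activated by double-strand breaks, was listed at 7, 7.08 and 7.54 RPKM with DMSO and 6.2, 5.99 and 5.25 RPKM with OTI-611 (log2 fold change -0.27 ± 0.066 (SE), limma adjusted p = 0.00558). The ATR gene, whose kinase responds to single-stranded DNA at stalled forks, read 15, 14.2 and 14.9 RPKM with DMSO and 12.7, 11.96 and 11.5 RPKM with OTI-611 (log2 fold change -0.27 ± 0.046 (SE), limma adjusted p = 0.000741). For both kinases all OTI-611 libraries lay below all DMSO libraries, and the ratio of ATM to ATR was 0.467, 0.499 and 0.507 with DMSO and 0.488, 0.501 and 0.456 with OTI-611, with overlapping groups. CHEK2, the checkpoint kinase downstream of ATM, was at 24, 23.4 and 24.2 RPKM with DMSO and 23.02, 18.8 and 20.4 RPKM with OTI-611 (log2 fold change -0.20, limma adjusted p = 0.0183). In OTI-611 1 the level of CHEK2 was close to the DMSO values, and the other OTI-611 libraries lay further below. Its adjusted p in limma was 0.0536 without DMSO 1, 0.0502 without DMSO 3, 0.054 without OTI-611 2 and 0.0505 without OTI-611 3. CHEK1, the kinase downstream of ATR, was at 25, 25.5 and 25.2 RPKM with DMSO and 26.6, 26.8 and 26.9 RPKM with OTI-611, a log2 fold change of 0.082 (limma adjusted p = 0.0316). The CHEK1 groups did not overlap, but the adjusted p in limma was 0.0673 without DMSO 1, 0.085 without DMSO 3, 0.0513 without OTI-611 1, 0.0752 without OTI-611 2 and 0.0771 without OTI-611 3. The CHEK2 annotation in GENCODE has 4 named pseudogenes, whose copies can share reads with it.

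Of 16 other checkpoint genes, 15 were tested, and 5 rose (33.3%) and 6 fell (40%), against 27.8% and 37.3% of all genes tested. HUS1, part of the sliding clamp that helps activate ATR, rose from 12.3 ± 0.698 to 26.5 ± 0.927 RPKM (± SD over 3 libraries in each group; log2 fold change 1.05, limma adjusted p = 1.55e-07). TIMELESS, of the fork protection complex, rose by 0.30 on the log2 scale. ATRIP, the obligate partner of ATR, had a log2 fold change of -0.72 and TOPBP1, an activator of ATR, one of -0.42.

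Of the 6 genes that sense breaks and mark the surrounding chromatin, 4 were tested, and 1 rose and 1 fell (25% each). Over all genes tested the shares were 27.8% and 37.3%. NBN, which anchors the nuclease complex at breaks, was listed at 19, 17.2 and 17.99 RPKM with DMSO and 17.97, 17.96 and 17.4 RPKM with OTI-611 and did not pass (log2 fold change -0.023, limma adjusted p = 0.656), and its sign turned with the scaling. RNF168, the ubiquitin ligase that extends the mark on histones, rose from 7.66 ± 0.576 to 9.11 ± 0.133 RPKM (± SD over 3 libraries in each group; log2 fold change 0.23, limma adjusted p = 0.0065). RNF8, the ligase that acts before RNF168, was at 9, 9.25 and 9.46 RPKM with DMSO and 8.31, 8.33 and 8.88 RPKM with OTI-611, with no overlap between the groups and a log2 fold change of -0.11 that did not pass (limma adjusted p = 0.0719). With 0.5 added to DMSO 1 the adjusted p of RNF8 in limma was 0.0204. RNF8 also passed with all libraries cut down to whole numbers, but that leaves 9 RPKM in each DMSO library and 8 RPKM in each OTI-611 library, with no spread within a group, so this p is not informative.

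TP53BP1, which binds the mark and favours end joining, was at 5, 5.59 and 6.15 RPKM with DMSO and 4.9, 4.59 and 4.81 RPKM with OTI-611, a fall at the edge of the threshold (log2 fold change -0.19, limma adjusted p = 0.0494). Its groups did not overlap, and its adjusted p in limma was 0.106 without DMSO 2, 0.179 without DMSO 3, 0.0748 without OTI-611 1, 0.142 without OTI-611 2 and 0.096 without OTI-611 3. Exons of TUBGCP4 cover 28.7% of the exon bases of TP53BP1 on the other strand, and TUBGCP4 was listed at 7, 7.21 and 7.27 RPKM with DMSO and 7.22, 7.67 and 7.61 RPKM with OTI-611.

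Of this group, RAD50 and MDC1 lay under the minimum for testing. RAD50, the structural subunit of the break-sensing nuclease complex, was at 0, 0.575 and 0.678 RPKM with DMSO and 0.862, 0.851 and 0.851 RPKM with OTI-611, which are estimated 172 to 314 reads per library with decimals. The OTI-611 values of RAD50 were above those of DMSO 2 and DMSO 3, while their order against DMSO 1 is not known because its decimals are dropped. In addition, 79.7% of its exon bases are shared with other annotated genes, so its level is uncertain. MDC1, the scaffold that binds the phosphorylated histone at breaks, was listed at 0, 0.196 and 0.102 RPKM with DMSO and 0.0923, 0.177 and 0.0988 RPKM with OTI-611, or 27 to 53 estimated reads. Fitted with no filter on low values, neither RAD50 (log2 fold change 0.42, limma adjusted p = 0.337) nor MDC1 (0.033, limma adjusted p = 0.825) passed.

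Of 17 other genes of break sensing and of the 53BP1 branch, 16 were tested, and 4 rose (25%) and 6 fell (37.5%). These shares were close to the 27.8% and 37.3% of all genes tested. H2AX, the histone variant phosphorylated at breaks, fell from 40.03 ± 1.95 to 14.2 ± 0.634 RPKM (± SD over 3 libraries in each group; log2 fold change -1.44, limma adjusted p = 2.33e-08). RNF169, a reader that competes with 53BP1 for the ubiquitin mark, rose by 0.93 on the log2 scale, and UIMC1, which brings the BRCA1-A complex to that mark, by 0.30. BRCC3, the deubiquitinase of the same complex, had a log2 fold change of -0.85.

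The end resection genes went in opposite directions. RBBP8, which encodes CtIP and starts resection, was the third most abundant member by the mean of DMSO 2 and DMSO 3 and rose from 47.98 ± 0.625 to 57.2 ± 1.53 RPKM (± SD over 3 libraries in each group; log2 fold change 0.25, limma adjusted p = 5.43e-05). EXO1, the exonuclease that extends the resected tract, fell and was at 20, 20.1 and 20.3 RPKM with DMSO and 14.2, 14.4 and 14.9 RPKM with OTI-611 (log2 fold change -0.45 ± 0.035 (SE), limma adjusted p = 4.18e-06). All OTI-611 libraries of EXO1 lay below the DMSO libraries. The helicases BLM and WRN did not pass. BLM, which unwinds recombination intermediates, was at 6, 5.74 and 5.69 RPKM with DMSO and 5.58, 5.53 and 5.48 RPKM with OTI-611 (log2 fold change -0.061, limma adjusted p = 0.334). WRN was at 8, 7.8 and 7.81 RPKM with DMSO and 9.01, 9.27 and 8.04 RPKM with OTI-611 (log2 fold change 0.14, limma adjusted p = 0.0583), and it passed as higher without OTI-611 3 (limma adjusted p = 0.0134), after quantile normalization (0.0145) and after rescaling to the median log2 ratio (0.0155).

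Homologous recombination was split: BRCA1, RAD51C, RAD51D, XRCC2 and XRCC3 fell, and BARD1, BRCA2 and PALB2 rose. Of 11 members, all tested, 5 fell (45.5%) and 3 rose (27.3%), against 37.3% and 27.8% of all genes tested. The median log2 fold change of these members was -0.15. BRCA1, the ubiquitin ligase that directs breaks to recombination, was listed at 16, 16.8 and 16.8 RPKM with DMSO and 11.9, 11.5 and 10.1 RPKM with OTI-611 (log2 fold change -0.53 ± 0.057 (SE), limma adjusted p = 3.43e-05). BARD1, with which BRCA1 forms its stable ligase heterodimer, was at 9, 10.05 and 9.98 RPKM with DMSO and 10.98, 11.6 and 11.5 RPKM with OTI-611 (log2 fold change 0.21 ± 0.052 (SE), limma adjusted p = 0.00538). For each of the partners all 3 OTI-611 libraries lay on one side of all 3 DMSO libraries, below for BRCA1 and above for BARD1.

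PALB2, which bridges BRCA1 to BRCA2, was at 5, 5.25 and 5.43 RPKM with DMSO and 7.37, 7.33 and 7.45 RPKM with OTI-611 (log2 fold change 0.43 ± 0.052 (SE), limma adjusted p = 7.6e-05). BRCA2, which acts with PALB2 in strand exchange, was at 5, 4.85 and 5.33 RPKM with DMSO and 6.36, 6.13 and 5.71 RPKM with OTI-611 (log2 fold change 0.22 ± 0.062 (SE), limma adjusted p = 0.0107). The PALB2 values were tight within each group, and for BRCA2 the lowest OTI-611 value lay less than 1 RPKM above DMSO 1, within what its dropped decimals could hide. With all libraries cut down to whole numbers, neither BARD1 (limma adjusted p = 0.0585) nor BRCA2 (limma adjusted p = 0.132) passed. PALB2 passed there, but its whole numbers have no spread within a group, so that p is not informative.

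The ratios of 3 partners to BRCA1 lay apart between the groups, although none passed after adjustment. BARD1 to BRCA1 was 0.562, 0.599 and 0.596 with DMSO and 0.925, 1.01 and 1.13 with OTI-611. The PALB2 to BRCA1 ratio was 0.312, 0.313 and 0.324 with DMSO and 0.621, 0.636 and 0.735 with OTI-611, and that of BRCA2 to BRCA1 was 0.312, 0.289 and 0.318 with DMSO and 0.535, 0.532 and 0.564 with OTI-611. All 3 ratios were higher in every OTI-611 library than in any DMSO library, by 1.74-, 2.098- and 1.77-fold in the means. The exact two-sided permutation test gave p = 0.1 for each, the smallest that 3 libraries against 3 allow, and 0.17 after Benjamini-Hochberg adjustment over the 12 ratios computed between members. These pairs were chosen with earlier results of these data known.

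**Figure D3:**
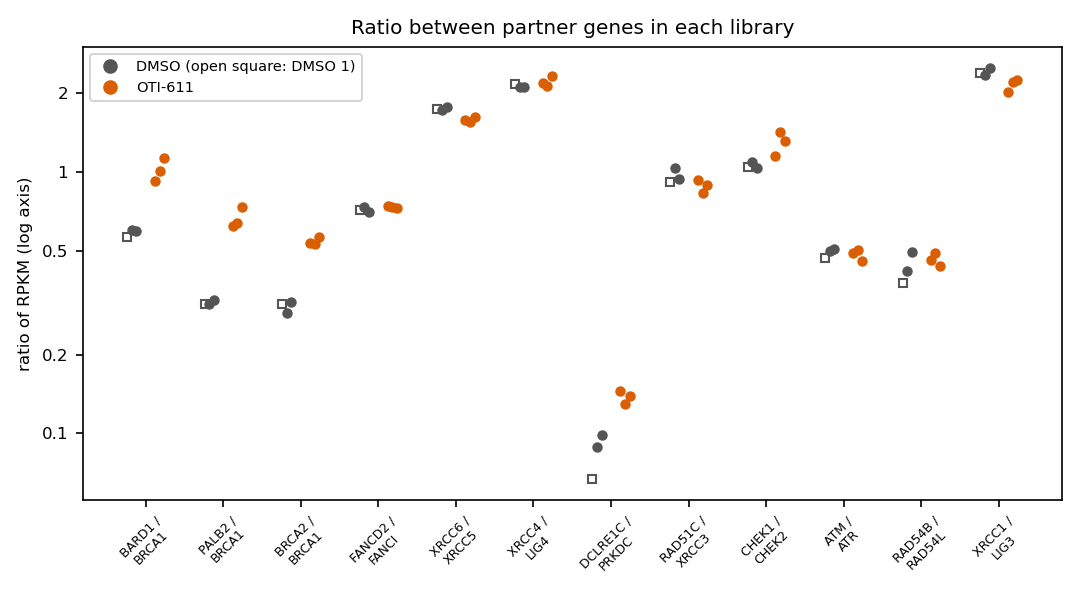
Ratio of RPKM between 12 pairs of members (y axis, log scale) in each library, DMSO in grey with DMSO 1 as an open square and OTI-611 in orange. The groups are apart in 7 of the 12 pairs with DMSO 1 as deposited. For XRCC1 to LIG3 this rests on the dropped decimals of DMSO 1, and the FANCD2 to FANCI and ATM to ATR ratios overlap. By their own levels 70.2% of all genes tested were apart, and the share over other pairs of genes was not computed.

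RAD51B, RAD51C, RAD51D, XRCC2 and XRCC3 are related proteins that form 2 complexes in strand exchange, and all but RAD51B fell. XRCC2 was at 14, 14.1 and 14.3 RPKM with DMSO and 8.37, 9.27 and 8.49 RPKM with OTI-611 (log2 fold change -0.64 ± 0.047 (SE), limma adjusted p = 2.75e-06). RAD51C, the member present in both complexes, was at 11, 12.1 and 10.96 RPKM with DMSO and 7.03, 6.54 and 7.21 RPKM with OTI-611 (log2 fold change -0.64 ± 0.056 (SE), limma adjusted p = 8.5e-06). XRCC2 and RAD51C stood at 0.613 and 0.601 of the mean of DMSO 2 and DMSO 3. RAD51D, the partner of XRCC2, was at 4, 4.76 and 4.56 RPKM with DMSO and 3.00, 2.87 and 2.9 RPKM with OTI-611 (log2 fold change -0.47 ± 0.077 (SE), limma adjusted p = 0.000521).

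XRCC3, the partner of RAD51C, was at 12, 11.7 and 11.7 RPKM with DMSO and 7.53, 7.85 and 8.11 RPKM with OTI-611 (log2 fold change -0.53 ± 0.045 (SE), limma adjusted p = 6.55e-06). Exons of KLC1 cover 76.7% of the exon bases of XRCC3 on the other strand, and KLC1 was listed at 4, 5.38 and 5.07 RPKM with DMSO and at 4.47, 4.35 and 4.13 RPKM with OTI-611, so part of the XRCC3 signal cannot be told apart from it if strand was not used. RAD51C to XRCC3 had a ratio of 0.917, 1.04 and 0.939 with DMSO and 0.933, 0.834 and 0.889 with OTI-611, with overlapping groups. RAD51B was at 6, 5.46 and 6.08 RPKM with DMSO and 5.81, 4.72 and 4.99 RPKM with OTI-611 (log2 fold change -0.15, limma adjusted p = 0.112). OTI-611 1 lay among the DMSO values of RAD51B, and without that library it passed as lower (log2 fold change -0.23, limma adjusted p = 0.0271).

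**Figure D4:**
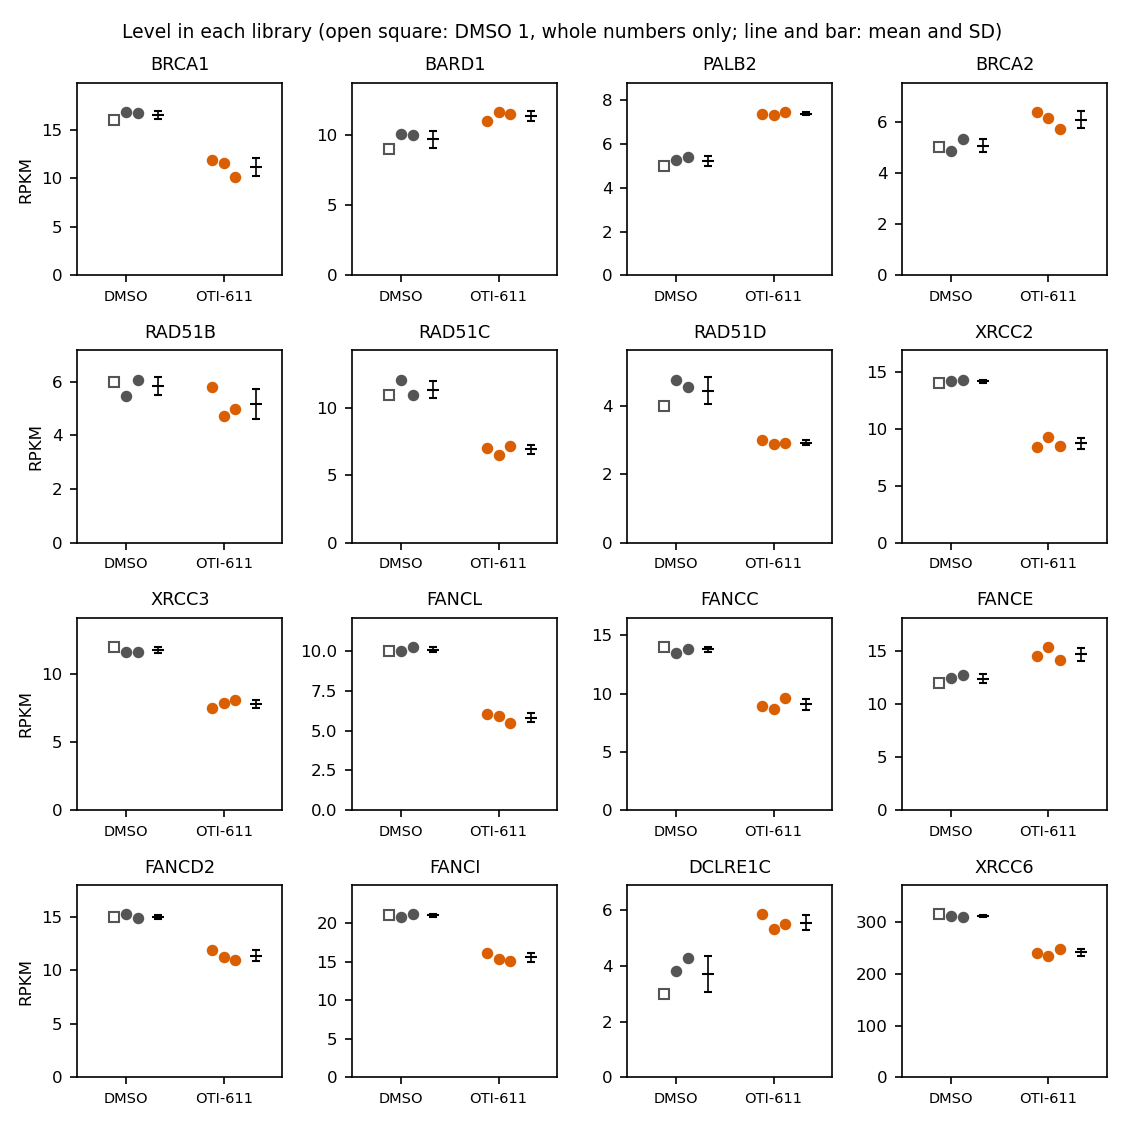
RPKM of 16 members (y axis from 0) in each library, DMSO in grey and OTI-611 in orange, with the mean and SD beside each group. The open square is DMSO 1, which holds whole numbers only. RAD51B is the panel in which the groups overlap, and BARD1, PALB2, BRCA2, FANCE and DCLRE1C are higher with OTI-611 while the other 10 are lower.

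The translocases RAD54L and RAD54B, which help strand invasion, did not pass. RAD54L was at 8, 7.22 and 7.21 RPKM with DMSO and 7.63, 8.1 and 9.03 RPKM with OTI-611 (log2 fold change 0.13, limma adjusted p = 0.13). RAD54B was at 3, 3.01 and 3.55 RPKM with DMSO and 3.5, 3.96 and 3.94 RPKM with OTI-611 (log2 fold change 0.20, limma adjusted p = 0.0613), and it passed as higher without DMSO 3 (limma adjusted p = 0.0298) and after quantile normalization (0.00853). The gene FSBP shares 59.1% of the exon bases of RAD54B on the same strand and was listed at 1, 1.78 and 1.82 RPKM with DMSO and 2.61, 3.31 and 2.79 RPKM with OTI-611. Exons of LRRC41 cover 25.1% of the exon bases of RAD54L on the other strand. Both RAD54 genes overlapped between the groups.

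Of 28 other recombination genes, 24 were tested, and 12 fell (50%) and 5 rose (20.8%), against 37.3% and 27.8% of all genes tested. RAD52, a mediator of single-strand annealing, rose from 3.74 ± 0.648 to 10.1 ± 0.22 RPKM, and FIGNL1, an ATPase of recombination, from 18.1 ± 0.819 to 34.5 ± 0.244 RPKM (± SD over 3 libraries in each group; log2 fold changes 1.24 and 0.90, limma adjusted p = 3.41e-06 and 1.03e-07). The single-strand binding subunits RPA3 (-0.53) and RPA1 (-0.40) fell on the log2 scale.

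In the Fanconi pathway 6 of 10 tested members fell (60%) and 1 rose (10%), against 37.3% and 27.8% of all genes tested. The median log2 fold change of these members was -0.27. FANCL, the ubiquitin ligase of the core complex, had the lowest log2 fold change of the tested members, at 10, 10.03 and 10.3 RPKM with DMSO and 6.02, 5.94 and 5.51 RPKM with OTI-611 (log2 fold change -0.70 ± 0.05 (SE), limma adjusted p = 2.35e-06). Exons of VRK2 and 1 other gene on the opposite strand cover 19.7% of its exon bases. FANCC, another core subunit, was at 14, 13.5 and 13.9 RPKM with DMSO and 8.94, 8.68 and 9.61 RPKM with OTI-611 (log2 fold change -0.56 ± 0.047 (SE), limma adjusted p = 6.69e-06). For both genes the OTI-611 libraries lay below all DMSO libraries.

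The substrates of the ligase fell by similar amounts. FANCD2 was at 15, 15.2 and 14.9 RPKM with DMSO and 11.9, 11.2 and 10.9 RPKM with OTI-611 (log2 fold change -0.37 ± 0.042 (SE), limma adjusted p = 4.64e-05). FANCI, with which FANCD2 is clamped on DNA, was at 21, 20.8 and 21.1 RPKM with DMSO and 16.1, 15.4 and 15.1 RPKM with OTI-611 (log2 fold change -0.41 ± 0.036 (SE), limma adjusted p = 9.35e-06). Their ratio was 0.714, 0.733 and 0.704 with DMSO and 0.74, 0.732 and 0.726 with OTI-611, with overlapping groups (exact permutation p = 0.3, 0.36 adjusted over the 12 ratios). BRIP1, the helicase also known as FANCJ that binds BRCA1, was at 4, 3.9 and 4.18 RPKM with DMSO and 2.87, 3.37 and 2.96 RPKM with OTI-611 (log2 fold change -0.31, limma adjusted p = 0.00607), and its adjusted p was 0.059 with all libraries cut down to whole numbers.

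The rest of the core complex did not move together. FANCG fell from 21.5 ± 1.29 to 18.3 ± 0.667 RPKM and FANCE, which links the core to FANCD2, rose from 12.4 ± 0.393 to 14.7 ± 0.604 RPKM (± SD over 3 libraries in each group; log2 fold changes -0.22 and 0.23, limma adjusted p = 0.00311 and 0.00134). FANCA, the partner of FANCG, was at 15, 15.4 and 15.5 RPKM with DMSO and 14.8, 15.4 and 15.4 RPKM with OTI-611 (log2 fold change -0.0094, limma adjusted p = 0.835), and FANCM, the translocase that recruits the core, at 5, 5.81 and 5.74 RPKM with DMSO and 5.92, 5.84 and 5.23 RPKM with OTI-611 (log2 fold change 0.033, limma adjusted p = 0.708). For FANCA and FANCM the groups overlapped, and the sign of the difference turned with the scaling for FANCA and without DMSO 1 for FANCM. Exons of ZNF276 cover 23.6% of the exon bases of FANCA on the other strand. ZNF276 was listed at 4, 5.21 and 5.61 RPKM with DMSO and 3.16, 3.36 and 3.71 RPKM with OTI-611.

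FANCB and FANCF were the lowest of the pathway, and their values in DMSO 1 depend most on its dropped decimals. FANCB was at 1, 1.68 and 1.71 RPKM with DMSO and 1.14, 1.12 and 0.929 RPKM with OTI-611, or 126 to 199 estimated reads, and did not pass (log2 fold change -0.24, limma adjusted p = 0.189). Without DMSO 1 the FANCB difference was -0.39 on the log2 scale with a limma adjusted p of 0.00694. FANCF was at 0, 1.07 and 0.955 RPKM with DMSO and 0.692, 0.707 and 0.708 RPKM with OTI-611 and lay under the minimum for testing. The OTI-611 mean of FANCF was 0.694 of the mean of DMSO 2 and 3, at 76 to 97 estimated reads per library.

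Of 14 other genes of the Fanconi pathway, 13 were tested, and 6 fell (46.2%) and 1 rose (7.69%). Over all genes tested the shares were 37.3% and 27.8%. CENPX, a histone-fold partner of FANCM, fell from 113 ± 0.577 to 57.7 ± 3.72 RPKM (± SD over 3 libraries in each group; log2 fold change -0.96, limma adjusted p = 1.34e-07). RFWD3, a ligase needed for crosslink repair, UBE2T, the conjugating enzyme that works with FANCL, and FAAP20, which stabilises FANCA, fell by 0.49, 0.29 and 0.32 on the log2 scale.

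The Ku genes were by far the most abundant members and both fell. XRCC6, which encodes Ku70, was at 315, 312 and 310.0 RPKM with DMSO and 241, 235 and 249 RPKM with OTI-611 (log2 fold change -0.37 ± 0.027 (SE), limma adjusted p = 2.53e-06). XRCC5, which encodes Ku80, fell from 178 ± 3.33 to 153 ± 1.31 RPKM (± SD over 3 libraries in each group; log2 fold change -0.22, limma adjusted p = 2.91e-05). The pair held 47.8% to 49.1% of the summed RPKM of all 46 members with DMSO and 44.5% to 45.8% with OTI-611. XRCC6 was lower by more than XRCC5, with a ratio of XRCC6 to XRCC5 of 1.75, 1.73 and 1.78 with DMSO and 1.58, 1.55 and 1.62 with OTI-611 (exact permutation p = 0.1, 0.17 adjusted over the 12 ratios). The summed RPKM of the 46 members was 1008 to 1016 with DMSO and 868 to 879 with OTI-611, and without the Ku genes it was 513 to 529 and 476 to 482.

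PRKDC, the catalytic subunit of DNA-PK that Ku brings to the ends, was at 45, 43.3 and 43.6 RPKM with DMSO and 40.3, 41.1 and 39.6 RPKM with OTI-611 (log2 fold change -0.12 ± 0.029 (SE), limma adjusted p = 0.00463). The groups did not overlap, but after rescaling to the median log2 ratio the PRKDC difference was -0.066 with a limma adjusted p of 0.248. DCLRE1C, which encodes the end-trimming nuclease Artemis, rose and was at 3, 3.83 and 4.28 RPKM with DMSO and 5.83, 5.32 and 5.48 RPKM with OTI-611 (log2 fold change 0.49 ± 0.1 (SE), limma adjusted p = 0.00206). Part of this lies with DMSO 1, without which the log2 fold change was 0.37 (limma adjusted p = 0.0018) and that of PALB2, at 0.40, was higher. DCLRE1C to PRKDC had a ratio of 0.0667, 0.0883 and 0.0982 with DMSO and 0.145, 0.129 and 0.138 with OTI-611.

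The ligation complex was slightly lower or did not pass. LIG4, the ligase that seals the ends, was at 6, 6.78 and 6.45 RPKM with DMSO and 5.43, 5.76 and 5.69 RPKM with OTI-611 (log2 fold change -0.16, limma adjusted p = 0.0393), and its adjusted p in limma was 0.137 without DMSO 2, 0.0919 without DMSO 3, 0.118 without OTI-611 1, 0.0688 without OTI-611 2 and 0.0782 without OTI-611 3. XRCC4, the stabilising partner of LIG4, was at 13, 14.3 and 13.7 RPKM with DMSO and 11.9, 12.4 and 13.3 RPKM with OTI-611 (log2 fold change -0.12, limma adjusted p = 0.0747), and its adjusted p was 0.0418 without DMSO 1 and 0.029 without OTI-611 3. The ratio of XRCC4 to LIG4 was 2.17, 2.11 and 2.12 with DMSO and 2.19, 2.14 and 2.34 with OTI-611, with overlapping groups.

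Of 10 other end joining genes, 9 were tested, and 2 rose and 2 fell (22.2% each), against 27.8% and 37.3% of all genes tested. TDP2 (-0.41) and TDP1 (-0.49), which remove trapped topoisomerases from DNA ends, fell on the log2 scale, and the polymerase POLM (0.33) rose (limma adjusted p = 3.47e-06, 2.25e-05 and 0.0174).

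The single-strand break partners both rose. LIG3, the ligase, rose from 5.27 ± 0.315 to 6.64 ± 0.136 RPKM (± SD over 3 libraries in each group; log2 fold change 0.29, limma adjusted p = 0.00181). XRCC1, its scaffold, was at 12, 13.2 and 13.04 RPKM with DMSO and 13.3, 14.5 and 15.3 RPKM with OTI-611 (log2 fold change 0.16, limma adjusted p = 0.0321), and the adjusted p was 0.104 without DMSO 1, 0.0816 without OTI-611 2 and 0.118 without OTI-611 3. Exons of neighbouring genes cover 30.5% of the exon bases of LIG3 and 24.0% of those of XRCC1.

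Of the mismatch repair members, MSH6 fell and PMS2 rose slightly. MSH6, which recognises mismatches, was at 20, 20.5 and 20.7 RPKM with DMSO and 14.7, 14.8 and 14.2 RPKM with OTI-611 (log2 fold change -0.46 ± 0.035 (SE), limma adjusted p = 3.85e-06). PMS2, a mismatch repair endonuclease, was at 6, 6.79 and 6.7 RPKM with DMSO and 7.2, 7.23 and 7.52 RPKM with OTI-611 (log2 fold change 0.15, limma adjusted p = 0.043), and its adjusted p was 0.0831 without DMSO 1, 0.053 without DMSO 3, 0.0736 without OTI-611 1, 0.0852 without OTI-611 2 and 0.13 without OTI-611 3. GENCODE names 11 pseudogenes of PMS2, so its reads may be divided among copies, and PMS2P5 was listed at 9, 8.84 and 9.44 RPKM with DMSO and 8.26, 8.09 and 6.98 RPKM with OTI-611. All 5 other mismatch repair genes were tested, and 2 rose (40%) and 1 fell (20%), against 27.8% and 37.3% of all genes tested. PMS1 rose with overlapping groups (log2 fold change 0.27, limma adjusted p = 0.0112).

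Proliferation genes moved beside these members. Of 20 S phase genes 18 fell (90%) and 0 rose, against 37.3% and 27.8% of all genes tested. The S phase genes had a median log2 fold change of -0.48. Their summed level was 1124 to 1153 RPKM with DMSO and 753 to 780 RPKM with OTI-611. Of 20 G2/M genes 19 were tested, and 11 rose (57.9%) and 5 fell (26.3%). The G2/M genes had a summed level of 1367 to 1374 RPKM with DMSO and 1400 to 1469 RPKM with OTI-611. The part of the cell cycle distribution in the values of the repair genes was not tested.

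**Figure D5:**
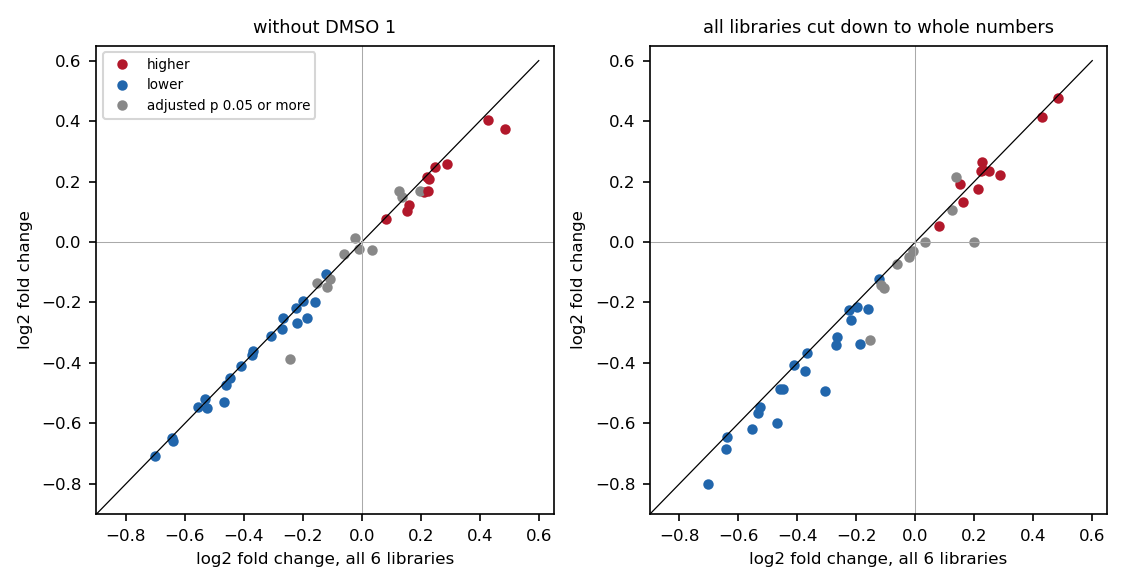
Log2 fold change of each tested member with all 6 libraries (x axis) against its value without DMSO 1 (left, y axis) or with all libraries cut down to whole numbers (right, y axis), coloured by the call with all 6, with the line of equality. The falls of at least 0.4 stay below 0 in both panels, and most rises lie under the line without DMSO 1, DCLRE1C going from 0.49 to 0.37.

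Calls were firm for 22 of the 32 members that changed. The 16 falls that passed in each alternative setting that could be fitted were those of ATM, ATR, EXO1, BRCA1, RAD51C, RAD51D, XRCC2, XRCC3, FANCC, FANCG, FANCL, FANCD2, FANCI, XRCC5, XRCC6 and MSH6, and the 6 rises were those of RNF168, RBBP8, PALB2, FANCE, DCLRE1C and LIG3. The other 10 lost the call in at least 1 setting. Beside the values above, TP53BP1 and LIG4 did not pass after quantile normalization (limma adjusted p = 0.127 and 0.135), nor did CHEK2 after rescaling to the median log2 ratio (limma adjusted p = 0.0785). None of the 32 changed direction in any of the 16 settings. For EXO1, PALB2, LIG3 and MSH6, cutting to whole numbers left no spread within a group, so their pass in that setting is not informative.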

How the data were processed

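RNA of DU145 cells was measured in 3 libraries with DMSO and 3 with OTI-611. The labels' protocols name a miRNeasy extraction, Geo-seq amplification and a TruePrep library, and the submitters' processing notes list TopHat2 2.0.9, HTSeq, Cufflinks 2.1.1, FastQC, CASAVA 1.7 and mm10, a mouse build, although all 32692 gene IDs are human, so the build behind these values is uncertain. The authors deposited 5 columns read as RPKM from their values (FPKM would look alike), and DMSO 1 as whole numbers, recorded as a score because the unit of whole numbers could not be checked, and used in the fit as RPKM with its decimals dropped. Depth was estimated from steps between low values with GENCODE 29 exon lengths, and 65.8% to 67.6% of low values were whole reads within 0.05. Replicates were compared before averaging: within a group, squared differences had a median of 3.12 to 4.77 times counting noise, so no library was a copy of another among the 5 with decimals.

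Log2(value + 1) was fitted with limma 3.58.1 in R 4.3.3 (group as the only term, trend, two-sided, Benjamini-Hochberg over genes averaging 1 RPKM or more in the 6 libraries, threshold 0.05), after a check on simulated data. The members, lists, ratios and settings were chosen with earlier results of these data known. Values in every library are given for members that changed by at least 0.3, members whose call changed under an alternative, the damage kinases, BRCA1, BRCA2 and PRKDC, and some others chosen after their values were seen. Up to 4 genes of each other list were named by smallest p. Alternatives covered the pseudocount, filter, scaling, variance trend, replicate block, treatment of DMSO 1 and each left-out library. Protein sequences were not used here, and some listed genes are not reported here.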

Additional observations from a re-analysis of the deposited data

How the results depend on the processing

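Over 16 alternatives the members' counts stayed within 1.5 times of 21 lower and 11 higher, at 17 to 24 lower and 8 to 13 higher. Leaving out 1 library gave 18 to 22 lower and 8 to 11 higher, and over all genes 3964 to 5080 lower and 2990 to 3320 higher. With the replicate number as a block, 20 members were lower and 9 higher, and 4429 genes were lower and 3327 higher over the table. No pairing by number was seen: deviations from the group mean correlated at 0.019, 0.00041 and -0.058 between same-numbered libraries. DMSO 2 and DMSO 3 (unlike DMSO 1) did not correlate best with the library of their own number. Deviations from a mean of 3 libraries are tied together within a group, so this check cannot exclude a shared culture or batch. The sign turned for 3 members that did not pass: NBN (0.0032 after quantile normalization, 0.033 after rescaling to the median log2 ratio, 0.012 without DMSO 1, and -0.055 without DMSO 2), FANCA (0.018, 0.047 in the same scalings, 0.0090 without OTI-611 1, and -0.022 without DMSO 1) and FANCM (-0.0056 with 0.5 added to DMSO 1, -0.026 without DMSO 1, and 0.080 without OTI-611 3). Of pathway counts, end joining falls went from 4 to 2 after rescaling, and recombination rises from 3 to 1 with whole numbers, where the values are coarser. Counts of 1 or 2 in the smaller groups changed with the members named as uncertain above. Of 682 recomputed member values 608 kept direction and call, 50 lost and 16 gained the call, and 8 turned sign. Members at 1 to 5 RPKM are limited most by the dropped decimals of DMSO 1.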

Other observations

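Repair routes outside the double-strand break pathways were also measured. In base excision repair 8 of 16 tested genes fell (50%) and 3 rose (18.8%), against 37.3% and 27.8% of all genes tested. FEN1, the flap nuclease shared with replication, fell from 86.7 ± 2.7 to 39.5 ± 1.53 RPKM (± SD over 3 libraries in each group; log2 fold change -1.11, limma adjusted p = 2.54e-08), and the uracil glycosylase UNG (-0.67), PARP1 (-0.50), the sensor of strand breaks, and the ligase LIG1 (-0.42) also fell. In nucleotide excision repair 5 of 14 tested genes rose (35.7%) and 6 fell (42.9%). GTF2H3 (0.37), a subunit of the helicase complex TFIIH, and RAD23B (0.18), a partner of the damage sensor XPC, rose, while ERCC8 (-0.45) and DDB2 (-0.26), which act in recognition, fell.

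Of 9 translesion synthesis genes 2 rose and 2 fell (22.2% each), against 27.8% and 37.3% of all genes tested. POLH, the polymerase that copies past ultraviolet damage, fell from 7.41 ± 0.397 to 3.96 ± 0.386 RPKM (± SD over 3 libraries in each group; log2 fold change -0.76, limma adjusted p = 1.38e-05) and the ligase RAD18 fell (-0.17), while POLK (0.29) and REV3L (0.26) rose. Of 20 p53 response genes 15 were tested, and 7 rose (46.7%) and 5 fell (33.3%). GADD45A (1.27) and TNFRSF10B (0.80) rose on the log2 scale, and TP53I3 (-1.89) fell. Over the 9 repair lists other than the members, 121 genes were tested, of which 49 (40.5%) fell and 29 (24%) rose, against 37.3% and 27.8% of all genes tested.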
